A study of Homo sapiens with 19 samples.

Results

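The genes described here are 8 genes of glycogen metabolism, namely GYS1, GBE1, PPP1R3B, PPP1R3C, PYGL, PYGB, PGM1 and UGP2. They were taken by symbol from the 23441 gene symbols of the RNA-seq count table, and peaks of HIF binding were then looked up around their start sites. All 8 were in the table and all 8 passed the filter on low counts, as did 14225 genes in all. The cells were pools of 786-O, an established clear cell renal carcinoma line with defective VHL, in which HIF-2α is stable in normoxia. One pool carried the empty lentiviral vector pRRL (control cells), another pRRL-HIF-1a (HIF-1α re-expressing cells) and another pRRL-HIF-2a (HIF-2α overexpressing cells), and the VHL defect and the endogenous HIF-2α were common to all of them. The viruses also carried EGFP behind an IRES, and each pool is a mixture of infected cells of 1 line. RNA-seq was performed on 9 libraries, 3 per pool, and 7 lists of ChIP-seq peaks were available, 1 per pool and antiserum (HIF-2α and HIF-1β in each pool, HIF-1α in the HIF-1α re-expressing cells). Neither the labels nor the methods say that libraries of a pool came from separate infections, so the p-values measure the spread between these libraries, which may be technical.

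Glycogen is a branched store of glucose. PGM1 (phosphoglucomutase) and UGP2 (UDP-glucose pyrophosphorylase) turn glucose 6-phosphate into UDP-glucose, GYS1 (the muscle-type glycogen synthase) adds it to the chain, and GBE1 (the branching enzyme) makes the branches. PPP1R3B and PPP1R3C bring protein phosphatase 1 to glycogen, where it activates the synthase, and PYGL and PYGB (the liver and brain forms of glycogen phosphorylase) release glucose 1-phosphate from the chain. HIF is a dimer of HIF-1α or HIF-2α with HIF-1β that binds the hypoxia response element (HRE), whose core is ACGTG or GCGTG. Clear cell renal carcinoma takes its name from cytoplasm that looks clear because it holds glycogen and lipid.

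Binding at the 8 genes is described first, since it lies at a few short stretches of sequence. A peak was counted for a gene when its midpoint lay within 10 kb of any annotated start site, in GRCh37 coordinates with GENCODE genes. Peaks of all 7 lists lay near GBE1 and near PPP1R3C. Of the 13769 genes tested for expression that could be placed on the genome, 1.84% had a peak of every list in that range. PGM1 had peaks of 5 lists, GYS1 of 4, PPP1R3B and PYGL of 3, UGP2 of 2 and PYGB of 1. The peaks of each gene overlapped in a single site, except that GYS1 had a second one, and so the 8 genes had 9 sites. The list of HIF-1β in HIF-2α overexpressing cells counted for GYS1 only through that second site.

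The sequences below are short stretches with 2 or more HRE cores at the sites of PPP1R3C, GBE1, GYS1, PYGL and PGM1. They were chosen to show the start or the next intron of each gene, and further cores of these sites lie outside them. They were read from GRCh37 and are written 5′ to 3′ on the strand of the gene, with each HRE core on either strand in capitals. CACGTG holds a core on each strand and is also the E-box, and such a run is counted as 2 cores.
PPP1R3C, the 270 bases before the start (chr10:93392829-93393098, minus strand, 5 cores): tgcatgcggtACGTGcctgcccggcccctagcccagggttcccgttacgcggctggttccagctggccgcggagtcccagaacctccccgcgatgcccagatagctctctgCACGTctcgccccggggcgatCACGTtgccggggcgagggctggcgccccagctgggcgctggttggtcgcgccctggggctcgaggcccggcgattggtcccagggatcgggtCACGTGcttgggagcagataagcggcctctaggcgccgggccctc
GBE1, the 200 bases before the start (chr3:81810797-81810996, minus strand, 2 cores): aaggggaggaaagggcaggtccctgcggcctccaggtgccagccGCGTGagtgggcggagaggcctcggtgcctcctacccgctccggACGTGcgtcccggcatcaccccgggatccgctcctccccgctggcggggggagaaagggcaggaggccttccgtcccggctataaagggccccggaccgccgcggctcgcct
GBE1, 161 bases of an intron downstream of the start (chr3:81810101-81810261, minus strand, 5 cores): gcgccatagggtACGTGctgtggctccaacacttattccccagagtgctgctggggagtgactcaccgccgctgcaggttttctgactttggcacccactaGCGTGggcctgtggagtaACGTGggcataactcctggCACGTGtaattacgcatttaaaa
GYS1, the 251 bases before the start (chr19:49496568-49496818, minus strand, 2 cores): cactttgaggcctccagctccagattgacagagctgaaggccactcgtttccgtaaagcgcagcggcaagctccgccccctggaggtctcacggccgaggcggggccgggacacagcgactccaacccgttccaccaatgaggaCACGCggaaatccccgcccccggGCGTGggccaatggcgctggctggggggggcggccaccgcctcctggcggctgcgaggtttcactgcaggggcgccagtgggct
PYGL, the first 146 coding bases (chr14:51410976-51411121, minus strand, 4 cores): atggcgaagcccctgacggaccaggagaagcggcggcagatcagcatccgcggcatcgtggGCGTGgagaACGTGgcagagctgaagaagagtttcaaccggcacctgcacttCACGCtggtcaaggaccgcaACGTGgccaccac
PGM1, 73 bases of an intron downstream of the start (chr1:64059407-64059479, plus strand, 2 cores): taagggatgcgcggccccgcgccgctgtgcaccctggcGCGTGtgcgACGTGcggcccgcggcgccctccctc

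PPP1R3C (chr10:93388199-93392828, minus strand) has 1 annotated start. The midpoints of its 7 peaks lay within 830 bp of each other, 6 of them upstream of the gene and that of HIF-1β in the HIF-2α overexpressing cells in its intron, 276 bp downstream of the start. The 3 HIF-2α midpoints were closer together than the 3 of HIF-1β. They lay 104 bp upstream in control cells, 188 bp in HIF-1α re-expressing cells and 170 bp in HIF-2α overexpressing cells. The HIF-1α peak was centred 220 bp upstream. Within the 300 bp around the midpoint, the HIF-2α peaks held 4, 5 and 5 HRE cores, and the HIF-1α peak held 3. The HIF-1β windows held 3 cores in control cells, 0 in HIF-1α re-expressing cells and 1 in HIF-2α overexpressing cells. At least 1 core is common at peaks in general, in 45.7% to 68.2% of the windows of a list. In the 300-base promoters of RefSeq (GRCh38.p14, 35116 promoters, 48.4% with at least 1 core), PPP1R3C had 4 cores, a number reached by 4.4% of promoters.

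GBE1 (chr3:81538854-81810796, minus strand) had its 7 midpoints within 730 bp, between 124 bp upstream of the 5′ end and 606 bp downstream of it. Only the HIF-2α peak of the HIF-1α re-expressing cells was centred upstream, while 4 midpoints lay in an intron and 2 in a coding exon. The sequences above show 2 cores upstream and 5 in the intron. Single cores lay also 15 and 200 bp downstream of the start, and the one at 200 bp was within 150 bp of the midpoints of 3 of the 7 peaks, more than any other core of GBE1. The window of HIF-1β in the HIF-2α overexpressing cells covered the 5 intronic cores, and it held an AP-1 motif (TGACTCA, or TGAGTCA on the other strand), as did 16.3% of the windows of that list. The HIF-2α window of the HIF-1α re-expressing cells covered both upstream cores and the one 15 bp downstream, and the HIF-2α window of the HIF-2α overexpressing cells held 0 cores. The RefSeq promoter of GBE1 held 3 cores, reached by 10.1% of promoters, and that of PYGB held 3 too. Those of GYS1, UGP2 and PGM1 held 2, 1 and 0 cores, and PPP1R3B had no promoter in that set.

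GYS1 (chr19:49471387-49496567, minus strand) had peaks of HIF-1β in control cells and of HIF-1α and HIF-1β in HIF-1α re-expressing cells at its start. No HIF-2α peak of any pool lay within 10 kb. This site is shared with the start of RUVBL2, a chromatin remodelling ATPase on the opposite strand, and the HIF-1α midpoint lay 28 bp from a start of RUVBL2 and 549 bp upstream of GYS1. A second GYS1 site, with HIF-1β in control and HIF-2α overexpressing cells and HIF-1α in HIF-1α re-expressing cells, was centred 5.547 to 6.872 kb from the nearest start of GYS1, beyond its 3′ end, and the closest protein-coding start there was that of FTL, the ferritin light chain. The peaks alone do not tell which of these neighbours a site belongs to.

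PYGL (chr14:51324609-51411201, minus strand) had a HIF-1α and a HIF-1β peak in the HIF-1α re-expressing cells and a HIF-1β peak in the HIF-2α overexpressing cells, and none in the control cells. The first pair were centred 2 and 3 bp from a start site. The RefSeq promoter of PYGL held 0 HRE cores. The bound site, which reaches further on both sides, held 5 cores upstream of the 5′ end and 7 downstream, 4 of the latter in the first 146 coding bases. PGM1 (chr1:64059082-64125916, plus strand) had HIF-2α and HIF-1β in control cells, HIF-1α and HIF-1β in HIF-1α re-expressing cells and HIF-1β in HIF-2α overexpressing cells at its start. The last of these peaks was centred 198 bp from a PGM1 start and 112 bp from a start of the neighbouring gene ITGB3BP. The HIF-2α list of the HIF-2α overexpressing cells had no peak at the start of PGM1. Its nearest one to PGM1 was 11.73 kb from a start, beyond the 3′ end, so the endogenous HIF-2α peak of control cells was not called again in the pool with more HIF-2α. The lists carry no signal, and a peak missing from a list may lie just under the threshold of that library.

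PPP1R3B (chr8:8993765-9009084, minus strand) had HIF-1β peaks in all 3 pools, and UGP2 (chr2:64068086-64118696, plus strand) had them in control and HIF-1α re-expressing cells. PYGB (chr20:25228721-25278648, plus strand) had a HIF-1β peak in HIF-1α re-expressing cells, 83 bp downstream of its start. None of these 3 genes had a HIF-1α or HIF-2α peak within 10 kb. Peaks of 5 lists lay 15.399 to 16.387 kb from a PYGB start, beyond its 3′ end, at starts of the neighbouring gene ABHD12.

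**Figure D1:**
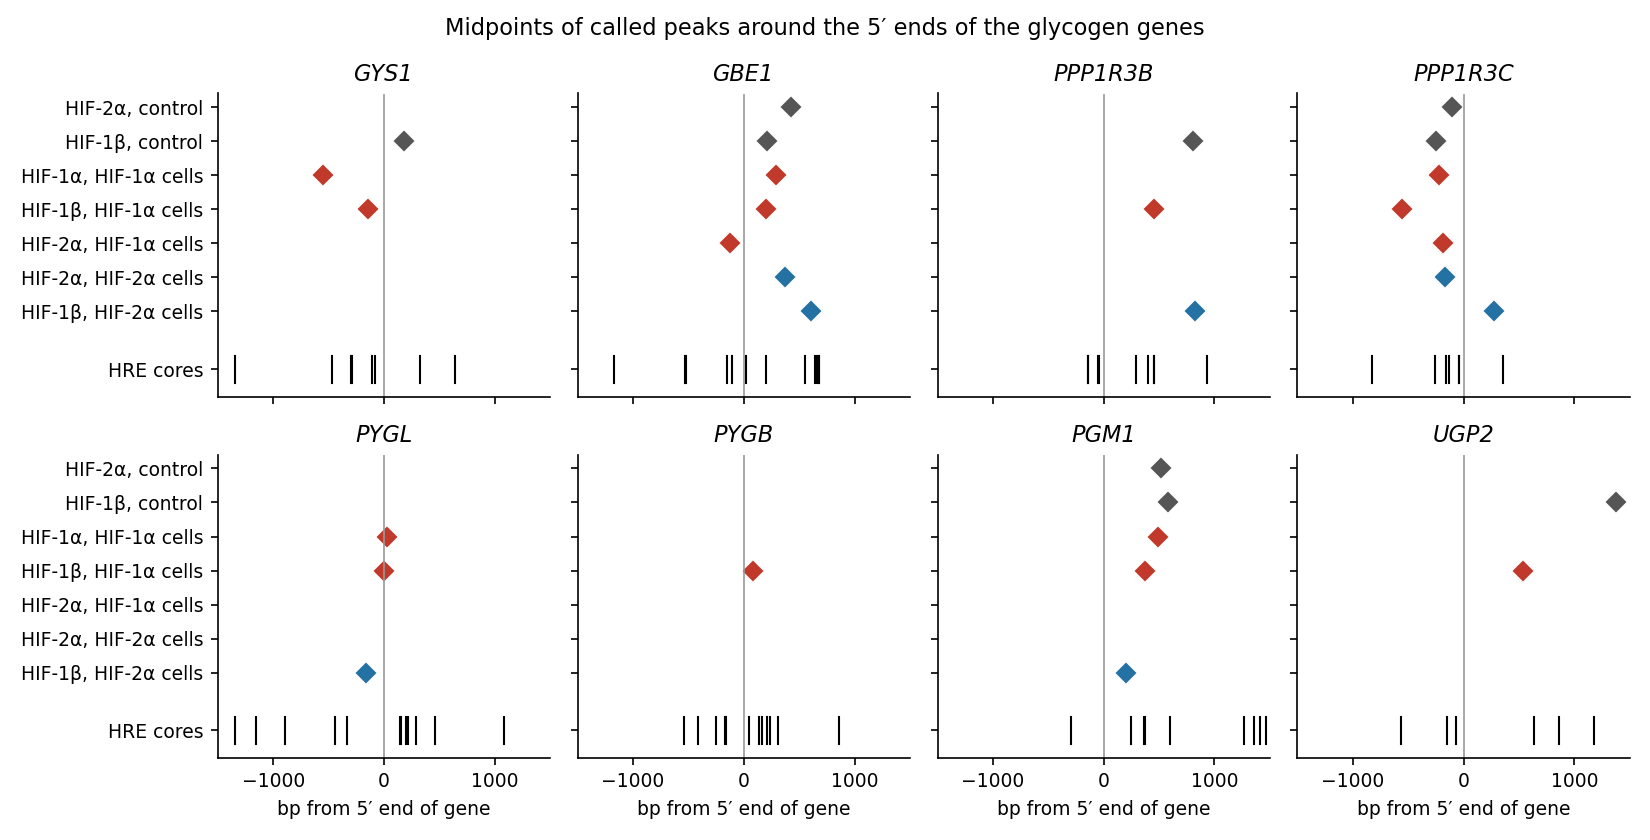
Midpoints of called peaks (diamonds) by list, against the distance in bp from the annotated 5′ end of each gene, negative upstream. Ticks at the bottom are HRE cores within the bound site. GBE1 and PPP1R3C have a peak of all 7 lists, and the HIF-2α rows are empty at GYS1, PPP1R3B, PYGL, PYGB and UGP2.

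By list, HIF-2α had peaks near 3 of the 8 genes in control cells (GBE1, PPP1R3C and PGM1), where 3.78% of protein-coding genes and 5.33% of genes tested for expression had one. In HIF-1α re-expressing cells HIF-2α was near GBE1 and PPP1R3C (2 of 8, against 4.22% of tested genes). The same number held in HIF-2α overexpressing cells (2 of 8, against 14.5%), although that list was longer. HIF-1α was near 5 of 8 genes in HIF-1α re-expressing cells (GYS1, GBE1, PPP1R3C, PYGL and PGM1), against 34.6% of tested genes. HIF-1β was near 6 of 8 in control cells (25.7%), 8 of 8 in HIF-1α re-expressing cells (40.8%) and 6 of 8 in HIF-2α overexpressing cells (16.2%). Within 5 kb the last count was 5 of 8 (13.8%), without GYS1. With 1 library per antiserum and pool there was no replicate of any list and no test of these differences.

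For RNA, library totals were 27852754 to 54287621 counts. Levels are given as CPM, the count of a gene relative to the library total after TMM scaling (a correction for composition), in the order of replicates 1, 2 and 3. The transgenes differed between libraries. HIF1A was at 171, 1682 and 473 CPM in the HIF-1α re-expressing libraries, at 30.4, 36.7 and 152 CPM in the control libraries and at 15.3, 30.4 and 17.5 CPM in the HIF-2α overexpressing libraries. Control replicate 3 was thus close to HIF-1α replicate 1, and CA9, a classical HIF-1 target, was at 14.3 CPM in the former and 8.46 CPM in the latter, against 0 and 0.171 CPM in the other control libraries. Counts per gene do not separate the transgene from the truncated HIF1A transcripts of 786-O cells, and in bulk RNA fewer infected cells and less transgene RNA per cell cannot be told apart. Whether cells or libraries of these 2 samples had been mixed was not tested, and the samples were kept under their labels. Values without both of these doubtful libraries are given for the genes with the largest estimates. EPAS1, which encodes HIF-2α, was at 946, 3244 and 880 CPM in the HIF-2α overexpressing libraries and at 456, 224 and 162 CPM in the control libraries. In the HIF-1α re-expressing libraries EPAS1 was at 575, 627 and 397.1 CPM, which is 1.26, 2.80 and 2.45 fold the control of the same number, with overlapping ranges and a log2 fold change of 0.93 (SE 0.54, edgeR adjusted p = 0.365, or 0.154 with the block). The part of EPAS1 in the values of that pool was not tested. The renal markers PAX8, PAX2, VIM, KRT8 and KRT18 were present in every library, LRP2 of the proximal tubule was at or near 0, and PTPRC, PECAM1, ALB, DES and INS, markers of other cells, were all under 1 CPM.

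Per kb of annotated exon, PYGB was the highest of the 8 genes in control cells, at 54.4 ± 27.2 CPM per kb (SD, n = 3). PGM1 followed at 42.9 ± 13.6, PYGL at 25.1 ± 3.01, GBE1 at 20.4 ± 6.18, UGP2 at 17.3 ± 4.39, GYS1 at 9.37 ± 2.06, PPP1R3B at 5.93 ± 2.19 and PPP1R3C at 2.88 ± 0.705 CPM per kb. The ranges of neighbours in this order overlapped between libraries, except that PGM1 lay above PYGL and UGP2 above GYS1 in all 3. The brain form of the phosphorylase was thus higher than the liver form in all 3 control libraries, and the targeting subunits had the lowest means of the set.

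Re-expression of HIF-1α addressed which of these genes respond to HIF-1α. The estimated log2 fold change against control cells was positive for all 8 genes, with a median of 0.85, against 52.4% positive and a median of 0.04 over all genes tested. In the edgeR fit on cell pool alone, 0 of the 8 passed an adjusted p of 0.05, as did 0% of all genes, and 4 of the 8 had an unadjusted p under 0.05 in the direction of a rise, as did 11.1% of all genes. With the replicate number as a block, PPP1R3C and GBE1 rose (2 of 8, against 5.41% of all genes), and DESeq2 without a block called PPP1R3C higher (1 of 8, against 3.53% of the genes it tested). The members with the largest estimates were PPP1R3C, GYS1 and GBE1, which were past 2-fold (3 of 8, against 10.3% of all genes). GBE1, PPP1R3C and PYGL were higher in every HIF-1α re-expressing library than in any control library (3 of 8, against 12.9%).

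PPP1R3C, the targeting subunit with binding of all 7 lists, was at 5.87, 6.77 and 9.33 CPM in control libraries, 9.76, 43.1 and 32.6 CPM in HIF-1α re-expressing libraries and 8.74, 11.2 and 13.2 CPM in HIF-2α overexpressing libraries. HIF-1α replicates 2 and 3 stood clear of all others, while HIF-1α replicate 1 was just above control replicate 3. The log2 fold change in HIF-1α re-expressing cells was 1.96 (SE 0.48, edgeR adjusted p = 0.149). With the replicate block it was 1.80 (SE 0.35, adjusted p = 0.0357), and the call held in 4 of the 9 fits that left out 1 library. It was lost without HIF-1α replicate 2 (log2 1.32) and without HIF-1α replicate 3, HIF-2α replicate 1, control replicate 2 or control replicate 3. Without both control replicate 3 and HIF-1α replicate 1 the log2 fold change was 2.57, or 2.41 with the block, with edgeR adjusted p of 0.104 and 0.102.

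GBE1, the branching enzyme, was at 61.7, 113 and 110 CPM in control libraries, 121, 316 and 180 CPM in HIF-1α re-expressing libraries and 68.3, 75.4 and 108 CPM in HIF-2α overexpressing libraries. Each HIF-1α re-expressing library was above its control of the same number, by 1.96, 2.80 and 1.64 fold. Of all genes, 29% were higher in all 3 pairs. The log2 fold change of GBE1 was 1.12 (SE 0.38, edgeR adjusted p = 0.190), and with the replicate block 1.08 (SE 0.25, adjusted p = 0.0426), a call that held in 1 of the 9 fits without a library, that without HIF-2α replicate 2. Leaving out HIF-1α replicate 2 gave the lowest estimate with the block, 0.71. Without both doubtful libraries the log2 fold change was 1.50, or 1.30 with the block, with adjusted p of 0.173 and 0.236.

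GYS1, the synthase, was at 31.5, 48.9 and 38.9 CPM in control libraries, 38.7, 217 and 50.9 CPM in HIF-1α re-expressing libraries and 34.8, 44.1 and 30.7 CPM in HIF-2α overexpressing libraries. HIF-1α replicate 2, the library with the most HIF1A, stood alone, and the other 2 HIF-1α re-expressing libraries were 1.23 and 1.31 fold above their controls. The log2 fold change was 1.36 (SE 0.56, edgeR adjusted p = 0.232), and with the block 1.03 (SE 0.39, adjusted p = 0.107). Without HIF-1α replicate 2 it was 0.14, or 0.32 with the block, so that the size of the estimate rested on this library. Without both doubtful libraries it was 1.73, or 1.76 with the block, with edgeR adjusted p of 0.203 and 0.174. RUVBL2, named because it shares the site at the start of GYS1 and chosen after its values were seen, had a log2 fold change of -0.32 (SE 0.27, adjusted p = 0.530). FTL, the neighbour at the second site and also chosen after its values were seen, was at 3702, 1415 and 2758 CPM in control libraries and 6147, 2460 and 3784 CPM in HIF-1α re-expressing libraries. FTL was higher in all 3 pairs, as were 29% of all genes. Its log2 fold change was 0.65 (SE 0.49, edgeR adjusted p = 0.473), and 0.66 with the block (SE 0.19, adjusted p = 0.0570). Against HIF-2α overexpressing cells FTL was higher with the block, by 1.04 (edgeR adjusted p = 0.0158). Without the block the difference was 1.01 (SE 0.49, adjusted p = 0.405). The call with the block was lost without both doubtful libraries (adjusted p = 0.116). Single libraries whose removal also lost it include HIF-1α replicate 1, HIF-1α replicate 2 and HIF-2α replicate 2.

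PYGL, the liver-type phosphorylase, was at 118, 98.9 and 125 CPM in control libraries, 184, 209 and 191 CPM in HIF-1α re-expressing libraries and 134, 97.5 and 76.5 CPM in HIF-2α overexpressing libraries. The 3 HIF-1α re-expressing libraries lay close together and above all 6 others. The log2 fold change was 0.77 (SE 0.23, edgeR adjusted p = 0.164), and 0.77 with the block (SE 0.21, adjusted p = 0.0551). Its estimates without 1 library, over the 18 fits without and with the block, ran from 0.64 to 0.96. This was the narrowest range of the 4 genes with an unadjusted p under 0.05. Without both doubtful libraries it was 0.87, or 1.21 with the block, with edgeR adjusted p of 0.212 and 0.156. Of its variance in log2 CPM over the 9 libraries, 79.4% lay between pools and 4.23% between replicate numbers, where the medians over all genes were 32.6% and 35.8%.

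The other 4 genes had smaller or less even estimates. PPP1R3B was at 45.1, 36.6 and 20.4 CPM in control libraries and 39.3, 79.8 and 74.3 CPM in HIF-1α re-expressing libraries, which overlapped, with a log2 fold change of 0.92 (SE 0.42, edgeR adjusted p = 0.261). Without both doubtful libraries PPP1R3B was at 0.91, or 0.64 with the block. PYGB was at 376, 213 and 139 CPM in control libraries and 454, 201 and 137 CPM in HIF-1α re-expressing libraries. It thus followed the replicate number rather than the pool, with 86.8% of its variance between numbers and a log2 fold change of 0.12 (SE 0.49, adjusted p = 0.915). PGM1 was at 238, 135 and 152 CPM in control libraries and 219, 181 and 213 CPM in HIF-1α re-expressing libraries, with a log2 fold change of 0.23 (95% interval -0.40 to 0.85). UGP2 was at 145, 122 and 86.2 CPM in control libraries and 128, 162 and 112 CPM in HIF-1α re-expressing libraries, with a log2 fold change of 0.18 (95% interval -0.43 to 0.80). For PGM1 and UGP2, which make UDP-glucose, changes up to these upper bounds are not excluded, or up to 0.68 and 0.62 with the block.

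**Figure D2:**
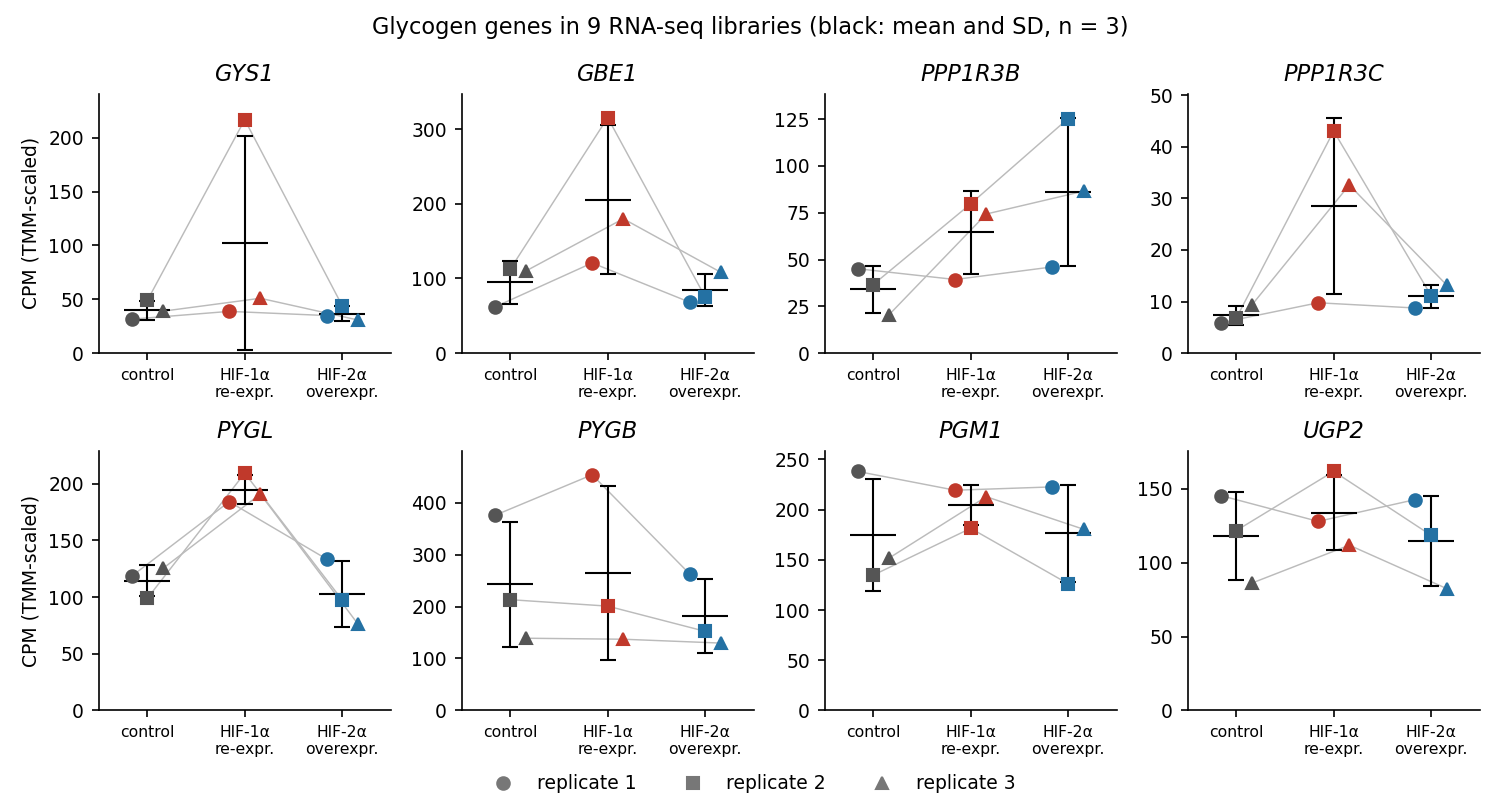
TMM-scaled CPM of each gene in the 9 libraries, by pool. Symbols mark the replicate number, grey lines join libraries of the same number, and black bars give the mean and SD (n = 3). PYGL is higher in all 3 HIF-1α re-expressing libraries than in any other, GYS1 is high in HIF-1α replicate 2 alone, and PYGB is highest in replicate 1 and lowest in replicate 3 of every pool.

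Within the HIF-1α re-expressing cells HIF1A was lowest in replicate 1, intermediate in replicate 3 and highest in replicate 2, and GYS1, GBE1, PPP1R3B, PPP1R3C and PYGL had the same order (5 of 8, against 13.6% of all genes), as did CA9. PYGB, PGM1 and UGP2 had other orders. GYS1 and GBE1 had this order of replicate numbers in the control libraries too, where HIF1A had another, so that the HIF1A level and the replicate number cannot be told apart here. In HIF-1α replicate 1 and control replicate 3, HIF1A was at 171 and 152 CPM, the lowest and the highest level of their pools. In these 2 libraries PPP1R3C was at 9.76 and 9.33 CPM, GYS1 at 38.7 and 38.9 CPM and GBE1 at 121 and 110 CPM. PYGL stood apart with 184 and 125 CPM. The highest control values of GYS1 and GBE1 were those of replicate 2, at 48.9 and 113 CPM. The part of the HIF1A level in the differences between libraries was not tested.

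**Figure D3:**
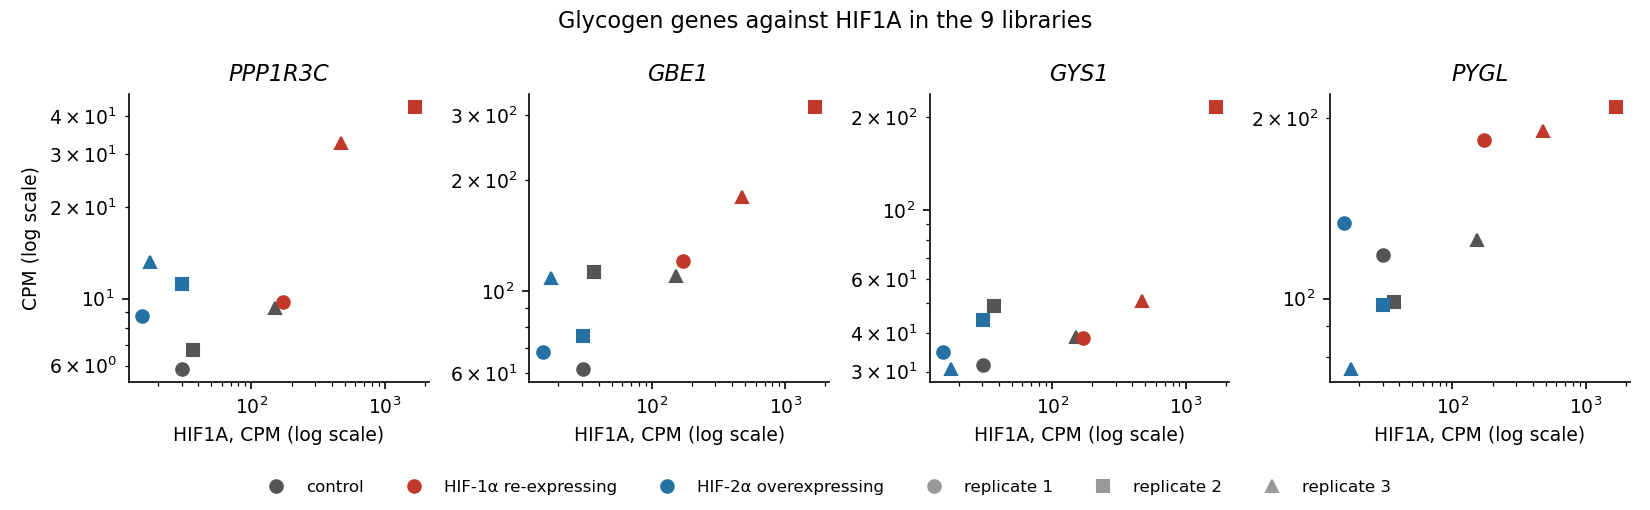
CPM of PPP1R3C, GBE1, GYS1 and PYGL (vertical, log scale) against CPM of HIF1A (horizontal, log scale) in the 9 libraries. Colours mark the pool and symbols the replicate number. The highest value of each gene is in HIF-1α replicate 2, at 1682 CPM of HIF1A, and control replicate 3 lies beside HIF-1α replicate 1 for PPP1R3C, GBE1 and GYS1.

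Overexpression of HIF-2α was compared with the same 3 control libraries. The median log2 fold change of the 8 genes was -0.08, and 3 of the 8 were positive, against a median of -0.02 and 47.5% positive over all genes. In the edgeR fit 0 of the 8 passed an adjusted p of 0.05, with or without the replicate block, as did 0% of all genes without it and 0.267% with it. Without the block, 1 of the 8 had an unadjusted p under 0.05 (3.35% of all genes in the same direction), and DESeq2 called 0 of the 8 (0.412% of the genes it tested). That gene was PPP1R3B, at 46.1, 125 and 86.5 CPM in HIF-2α overexpressing libraries, just above the range of the control libraries (1 of 8 genes not overlapping, against 6% of all genes). Its log2 fold change was 1.34 (SE 0.42, edgeR adjusted p = 0.753), and 1.23 with the block (SE 0.39, adjusted p = 0.231). PPP1R3B passed in 1 of the 9 fits with the block that left out 1 library. That fit was without control replicate 1, its highest control value, at 45.1 CPM. The log2 fold change was then 1.88 with HIF-2α (edgeR adjusted p = 0.0266) and 1.52 with HIF-1α (adjusted p = 0.0190). The same fit called 2408 genes in all with HIF-1α, against 1132 with every library. With HIF-2α no fit without 1 library called more than 94 genes. Replicate 1 of each pool was alike for PPP1R3B, between 39.3 and 46.1 CPM.

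GBE1 and PPP1R3C, which had HIF-2α peaks in all 3 pools, had log2 fold changes of -0.18 (SE 0.37, upper 95% bound 0.65, edgeR adjusted p = 0.948) and 0.59 (95% interval -0.44 to 1.62, adjusted p = 0.852) with HIF-2α overexpression. PGM1, with a HIF-2α peak in control cells, was at 0.01 (95% interval -0.61 to 0.64). GYS1 was at -0.12, PYGL at -0.16, PYGB at -0.42 and UGP2 at -0.04, and none of these passed the test. Without the block the intervals of GYS1, GBE1, PPP1R3C and PYGB include changes of 2-fold (1 on the log2 scale) in at least 1 direction. With the block that of PPP1R3C still does (-0.18 to 1.36). Those of GYS1 (-0.95 to 0.74), GBE1 (-0.69 to 0.44) and PYGB (-0.77 to 0.05) then do not.

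The pools with a HIF-α transgene were also compared directly. HIF-1α re-expressing cells had higher estimates than HIF-2α overexpressing cells for 7 of the 8 genes, all but PPP1R3B, with a median log2 difference of 0.73 against 0.02 over all genes. Without the block 0 of the 8 passed the edgeR test, as did 0.0492% of all genes, and 4 of the 8 had an unadjusted p under 0.05 (9.04% of all genes in that direction), while DESeq2 called GBE1 and PYGL (2 of 8, against 3.43% of the genes it tested). With the replicate block GBE1 and PYGL were higher in HIF-1α re-expressing than in HIF-2α overexpressing cells (2 of 8, against 4.54% of all genes). The log2 difference was 1.20 for GBE1 (SE 0.26, edgeR adjusted p = 0.0282) and 0.95 for PYGL (SE 0.21, adjusted p = 0.0351), and each call held in 3 of the 9 fits without a library. Both calls were lost without HIF-1α replicate 1 or 2, HIF-2α replicate 2 or 3 or control replicate 2, that of GBE1 also without HIF-2α replicate 1 and that of PYGL also without HIF-1α replicate 3. These 2 genes were also the ones with no overlap between the pools, against 10.4% of all genes. PPP1R3C differed by 1.37 without the block (adjusted p = 0.242) and 1.21 with it (adjusted p = 0.0739), and GYS1 by 1.48 (adjusted p = 0.282) and 1.13 (adjusted p = 0.124). Without control replicate 3 and HIF-1α replicate 1, PPP1R3C was past the threshold in both fits (adjusted p of 0.0415 and 0.0253), PYGL with the block (adjusted p = 0.0388) and GBE1 in neither (0.0878 and 0.0816).

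**Figure D4:**
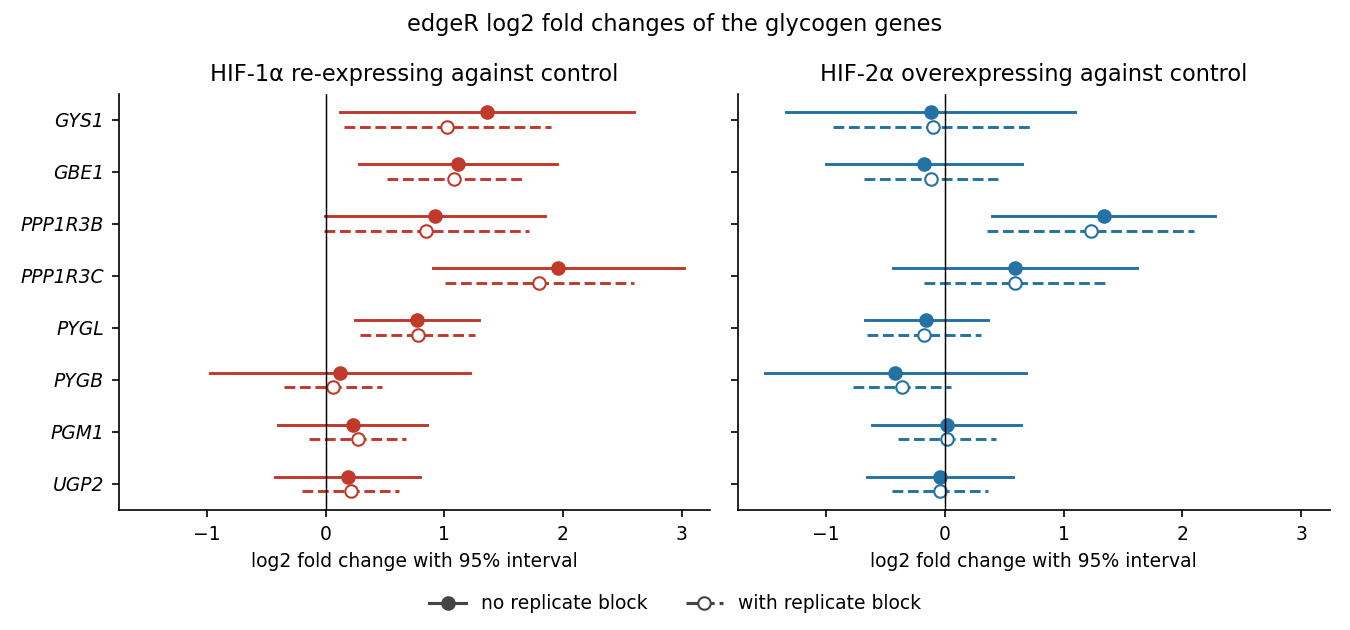
edgeR log2 fold change (horizontal) of each gene against control cells with its 95% interval, in HIF-1α re-expressing cells (left) and HIF-2α overexpressing cells (right). Filled points are without and open points with the replicate block. With HIF-1α the intervals of GYS1, GBE1, PPP1R3C and PYGL lie above 0, and with HIF-2α that of PPP1R3B does.

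The other genes of the pathway were 31, of which 26 passed the filter. GYG2, GYS2, PPP1R3A, PGM5 and G6PC did not, with under 1 CPM in every library, so the liver synthase and the glucose-6-phosphatase of liver and kidney were scarcely measured in these cells. With HIF-1α re-expression 0 of the 26 passed without the block (5 had higher and 2 lower levels at an unadjusted p under 0.05, as did 11.1% and 8.23% of all genes), 1 was called by DESeq2, and with the block PHKA1 rose and GYG1 fell (1 of 26 in each direction, against 5.41% and 2.55% of all genes). Their median log2 fold change was 0.22. GYG1, glycogenin, which primes the glycogen chain, was at 81.8, 66.4 and 52.1 CPM in control libraries, 49.2, 27.8 and 19.5 CPM in HIF-1α re-expressing libraries and 67.2, 45.2 and 53.0 CPM in HIF-2α overexpressing libraries. It was lower in all 3 HIF-1α re-expressing libraries than in any control library, with a log2 fold change of -1.05 (SE 0.34, edgeR adjusted p = 0.175), and -1.12 with the block (SE 0.21, adjusted p = 0.0352). The call held in 4 of the 9 fits with the block that left out 1 library, and was lost without HIF-1α replicate 2 or 3, HIF-2α replicate 1 or control replicate 2 or 3. Without both doubtful libraries GYG1 was at -1.41 with the block (adjusted p = 0.135).

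PHKA1, a regulatory subunit of phosphorylase kinase, was at 34.6, 21.9 and 16.6 CPM in control libraries and 52.2, 35.9 and 49.0 CPM in HIF-1α re-expressing libraries, with a log2 fold change of 0.91 (SE 0.29, edgeR adjusted p = 0.178), and 0.96 with the block (SE 0.22, adjusted p = 0.0421). That call held in 1 of the 9 fits without a library, that without control replicate 1, and PHKA1 was at 0.81 without both doubtful libraries (adjusted p = 0.299). With HIF-2α overexpression 0 of the 26 passed in either fit, 0 had an unadjusted p under 0.05 without the block, and the median was 0.09. In the direct comparison GYG1 passed with the block, at -0.86 (edgeR adjusted p = 0.0496, 1 of 26, against 1.38% of all genes), a call that held in 1 of the 9 fits without a library, that without HIF-1α replicate 1. GYG1 had a peak of 1 list near a start and PHKA1 of 2, and none of the 31 had peaks of all 7, PPP1R3E and PPP1CB having 5 at most.

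**Figure D5:**
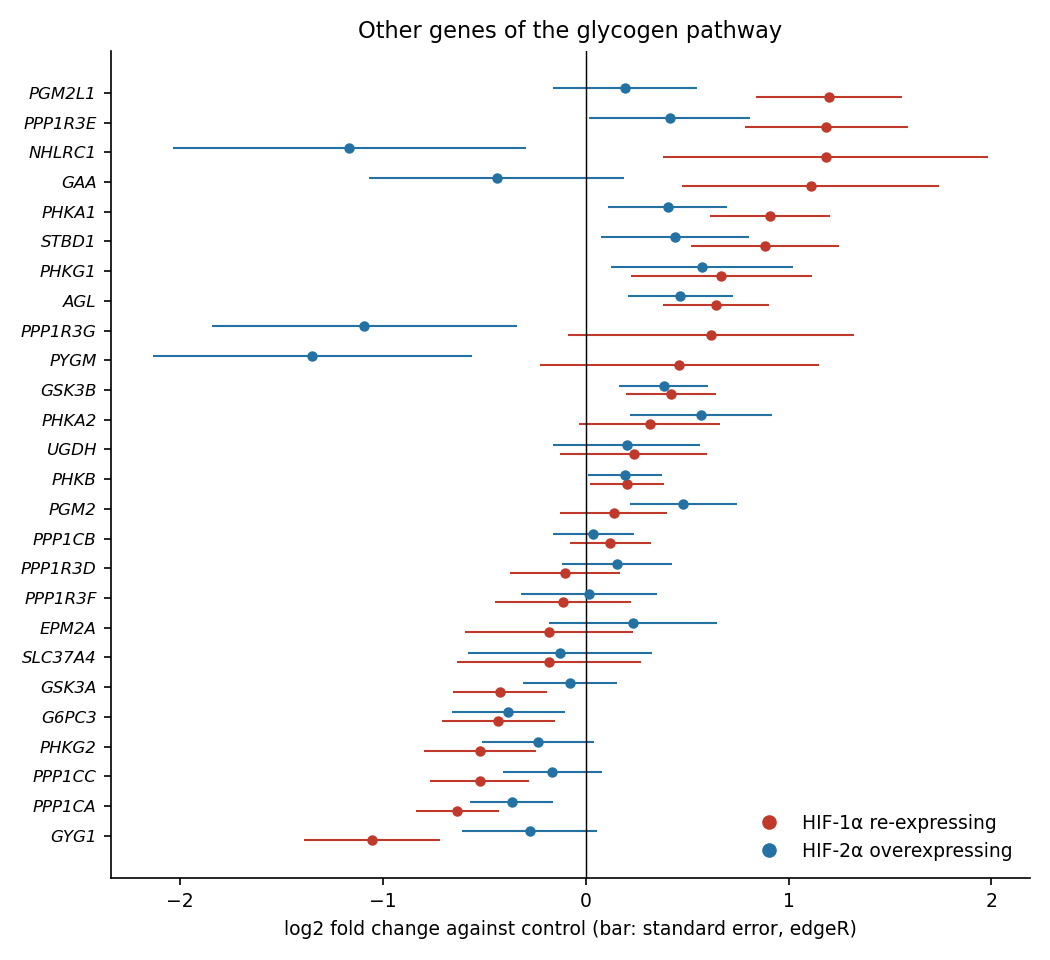
edgeR log2 fold change against control cells, with standard error bars, of the 26 other pathway genes that were tested, ordered by the value in HIF-1α re-expressing cells (red), with HIF-2α overexpressing cells in blue. GYG1 is at the bottom at -1.05 and PGM2L1 at the top at 1.20 with HIF-1α.

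Genes whose log2 CPM followed each member most closely over the 9 libraries were taken from the 10670 genes with a mean of at least 5 CPM. The highest Pearson r was 0.974 for GYS1 with PGK1, a glycolytic enzyme, 0.967 for GBE1 with RCOR1, 0.974 for PPP1R3C with ZNF667 and 0.973 for PYGL with FYN. It was 0.960 for PPP1R3B with MLXIP, 0.985 for PYGB with JDP2, 0.936 for PGM1 with ERLIN2 and 0.968 for UGP2 with COX15. No member was the nearest gene of another. These correlations are descriptions over 9 libraries that share pools, replicate numbers and scaling.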

How the data were processed

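Counts per gene symbol were deposited by the authors, not normalized, with replicates kept apart. Per the methods they came from Tophat 2.0.8b and bowtie 1.0.0 on GRCh37 and from HTSeq 0.5.4p3 in a strict mode on UCSC genes. The strand setting is not given in the sources used here. Peaks were deposited as positions only, in windows of 2500 bp with no score, so their signal and depth are unknown. The authors had kept those found by T-PIC and MACS. All columns of the table were mapped to samples by the labels.

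Here 1 edgeR 4.0.16 quasi-likelihood fit (R 4.3.3) was made on the 9 libraries, modelling the cell pool alone, with TMM factors, the filterByExpr filter and Benjamini-Hochberg adjustment over 14225 genes, at a threshold of 0.05. The study's methods name DESeq2, which was run as an alternative (DESeq2 1.42.0). Labels give the pools the same replicate numbers. After subtraction of pool means, libraries of the same number and different pools correlated across genes at 0.385 to 0.647 (9 pairs) and those of different numbers at -0.436 to 0.019 (18 pairs), so the numbers pair the libraries and the fit with the number as a block is printed where it changes a call. Scripts were tested on simulated counts.

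The 8 genes, the pathway list and the tests were chosen with earlier results of these data known. Named are all 8 genes, pathway genes past the threshold in either fit or under the filter, and per gene those most alike in log2(CPM + 1). Start sites are from GENCODE lifted to GRCh37, and promoters from RefSeq. Python 3.11.15, numpy 2.4.6, pysam 0.24.0 and matplotlib 3.10.9 were used. At these totals the spread between libraries, more than counting error, limits precision.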

Additional observations from a re-analysis of the deposited data

Results flagged for a closer look

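GBE1 and PYGL were singled out because their response differed between the pool with HIF-1α and the pool with HIF-2α in a direct test. With the replicate block the log2 difference, HIF-1α re-expressing minus HIF-2α overexpressing cells, was 1.20 for GBE1 and 0.95 for PYGL. The edgeR adjusted p values were 0.0282 and 0.0351. In that fit 4.54% of all genes were called higher in the HIF-1α re-expressing cells. Each of the calls held in 3 of the 9 fits with the block that left out a library. All 3 HIF-1α re-expressing libraries were above all 3 HIF-2α overexpressing libraries for both genes, as was the case for 10.4% of all genes. This order comes from the same libraries as the test and adds no separate evidence. Without the block the differences were 1.29 and 0.93 (adjusted p of 0.174 and 0.121).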

How the results depend on the processing

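Calls depended on the treatment of the replicate numbers. With the replicate block in edgeR, 1132 genes, 2 of the 8 glycogen genes and 2 other pathway genes were called with HIF-1α, 38, 0 and 0 with HIF-2α, and 843, 2 and 1 in the direct comparison. DESeq2 called 751, 1 and 1 with HIF-1α, 65, 0 and 0 with HIF-2α and 650, 2 and 0 in the direct comparison. DESeq2 with the block called 3025, 4 and 7, then 487, 1 and 0, then 1798, 4 and 3. It called GYS1, GBE1, PPP1R3C and PYGL with HIF-1α (adjusted p of 0.0435, 0.00245, 4.2e-05 and 0.0159) and PPP1R3B with HIF-2α (0.0389). Those calls stand beside 3025 and 487 genes in all. The share of tested genes was not computed for this fit, so the 4 and 1 of the 8 cannot be set against it. DESeq2 without the block called far fewer, 751 and 65, or 5.25% and 0.412% of the genes it tested. No filter on low counts gave 1 gene with HIF-2α and 82 in the direct comparison, a filter of 1 CPM in 3 libraries gave 31 in the latter, and fits on the 2 groups compared gave 2 and 0, and in all of these 0 of the 8 genes were called, as with RLE size factors or library totals in place of TMM.

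Leaving out each library in turn, without and with the block, gave 0 to 2408 genes, 0 to 2 glycogen genes and 0 to 6 pathway genes with HIF-1α (with the block, 0 genes without HIF-1α replicate 2 and 2408 without control replicate 1), 0 to 94, 0 to 1 and 0 to 0 with HIF-2α, and 0 to 890, 0 to 2 and 0 to 2 in the direct comparison. Estimates that changed sign in these fits were all uncalled. With HIF-1α they were PYGB (-0.53 to 0.58) and UGP2 (-0.0032 to 0.39). With HIF-2α they were GYS1 (-0.44 to 0.17), GBE1 (-0.41 to 0.16), PYGL (-0.40 to 0.043), PYGB (-0.78 to 0.045), PGM1 (-0.19 to 0.30) and UGP2 (-0.22 to 0.16). In the direct comparison it was PYGB (-0.11 to 0.87).

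Leaving out control replicate 3 and HIF-1α replicate 1 together was chosen after seeing the data, as was leaving out libraries with the block. It gave 0 genes with HIF-1α in both fits, 0 and 3 with HIF-2α, and 152 and 446 in the direct comparison, where 1 and 2 of the 8 genes were called, without and with the block. PYGB turned to -0.81 and -0.21 with HIF-1α and to -0.11 without the block in the direct comparison, and with HIF-2α PGM1 turned to -0.081 and -0.058, and GYS1 and PYGL to 0.22 and 0.039 with the block. Within 50 kb of a start, HIF-2α peaks of the HIF-2α overexpressing cells lay near 4 of the 8 genes, as they did near 28.4% of tested genes, and the other counts of peaks and the 9 sites stayed within 1.5 times. The cause of these changes was not tested. PPP1R3C had the lowest counts of the 8 genes in control cells, at under 10 CPM, and so the largest relative counting error there.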
